A study of Homo sapiens with 16 samples.

Results

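The prolyl isomerases of the endoplasmic reticulum (ER) were followed in LNCaP cells, an androgen-sensitive human prostate cancer cell line, in which the IRE1α-XBP1s arm of the unfolded protein response had been inhibited. The 7 genes are FKBP2, FKBP7, FKBP9, FKBP10, FKBP11 and FKBP14, which encode the ER-resident FKBP proteins, and PPIB, which encodes the ER cyclophilin B. They were selected by symbol, as the genes for ER-resident FKBP proteins and cyclophilin B, among the 58051 genes of the count table, and the rule has no threshold on a measured value. Cells of one passage (passage 20) were divided into 4 groups of 4 RNA-seq libraries each. In the knockdown experiment, the siRNA was either a control (siCtrl) or directed at XBP1 (siXBP1), and cells were kept for 2 days after transfection. In the inhibitor experiment, they received DMSO (Vehicle) or 10 µM MKC8866, a small-molecule inhibitor of the IRE1α endoribonuclease, for 24 h. All 16 libraries come from cells then exposed for 3 h to thapsigargin (TG, 30 nM), which empties the ER of calcium and thereby causes ER stress. Both controls were thus stressed cells, and each comparison asks how the stressed level changed when the arm was inhibited.

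Peptide bonds that precede proline can adopt a cis or a trans form, and their interconversion is slow enough to limit the folding of many proteins. Prolyl isomerases speed it up. FKBP proteins and cyclophilins are unrelated in fold and are bound by different immunosuppressants, FK506 and cyclosporin A, and the proline-rich chains of procollagen are among the best known clients of their ER members. XBP1s, the transcription factor made from XBP1 mRNA after IRE1α has spliced it, induces many genes for folding and secretion.

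Between 28713607 and 34509488 fragments were counted per library. XBP1 was at 362 to 426 CPM (counts scaled to library size with TMM factors) in the siCtrl libraries and at 51.5 to 54.4 CPM in the siXBP1 libraries (log2 fold change −2.85, SE 0.051, adjusted p = 2.92e-20). With MKC8866, total XBP1 was higher by 0.20 on the log2 scale (SE 0.044, adjusted p = 0.00493), and ERN1, which encodes IRE1α, was higher by 0.25 (SE 0.044, adjusted p = 6.18e-04). After knockdown ERN1 had a log2 fold change of −0.16 (SE 0.042, adjusted p = 0.00445). The counts are per gene, so spliced and unspliced XBP1 were not told apart. All 9 prostate luminal markers were expressed. Over the 16 libraries the summed level was 0.571 to 1.46 CPM for the 3 basal markers, of which KRT14 had 12 to 37 counts, TP63 2 to 16 and KRT5 0 to 3, and 0.0597 to 0.683 CPM for the 4 leukocyte markers, led by CD68 with 2 to 21 counts. Of the 6 fibroblast markers, COL1A1 had 788 to 1115 counts, COL3A1 60 to 161, PDGFRB 9 to 25 and LUM 5 to 16, and DCN and COL1A2 had at most 2. Adjusted p-values are from edgeR's quasi-likelihood test with Benjamini-Hochberg adjustment over all genes tested, and a gene was called at an adjusted p under 0.05. The labels do not say whether the 4 libraries of a group came from separate cultures, so that the p-values measure the spread between these libraries, which may be technical. Fewer cells of a type and less RNA per cell cannot be told apart in such bulk samples.

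The genes lie on 6 chromosomes. In the coordinates of the count table (GRCh38), they span chr11:64241003-64244132 for FKBP2 (plus strand), chr2:178463664-178478600 for FKBP7 (minus), chr7:32957404-33006931 for FKBP9 (plus), chr17:41812680-41823217 for FKBP10 (plus), chr12:48921518-48926474 for FKBP11 (minus), chr7:30010587-30026684 for FKBP14 (minus) and chr15:64155812-64163205 for PPIB (minus). RefSeq promoter windows (GRCh38.p14, from 250 bases before to 50 after a start) were matched for 5 of the 7 genes, 10 windows in all. None was matched for FKBP10 and FKBP14. Both strands were searched for the unfolded protein response element (UPRE, TGACGTGG), for ACGTGG, which is the last part of the UPRE and therefore overlaps it, for the ER stress response element (ERSE, CCAAT followed after 9 bases by CCACG) and for ERSE-II (ATTGG followed after 1 base by CCACG). Of the 10 windows, 4 held ACGTGG, against 9.72% of all 35116 windows, and none held the other 3 motifs, which are in 0.729%, 0.0769% and 0.0541% of all windows. Counted by gene, 3 of the 5 held ACGTGG, against 11.6% of 27305 genes, and some windows of FKBP2 overlap each other. The stretches around the ACGTGG matches are shown because windows of FKBP2, FKBP11 and PPIB held one and those of FKBP7 and FKBP9 did not. FKBP2 had 5 windows, FKBP11 had 2 and the others 1 each, so that more sequence was searched for FKBP2. They are written 5′ to 3′ on the strand of the gene, with the motif, or its reverse complement, in capitals. The match of FKBP2 lies 105 to 100 bases before the second of its RefSeq starts. For FKBP11, one match lies 197 to 192 bases before the first start and one lies 20 to 25 bases after the second. In PPIB it lies 185 to 180 bases before the start. Apart from the outer bases of the PPIB match, all of them fall within the span that the count table gives the gene, whose outermost transcript begins further upstream. The last sequences are the stretches immediately before FKBP7, which was lower after knockdown, and FKBP9, which was higher. Neither has a match.
FKBP2, chr11:64241327-64241356, plus strand: actcggggcgggACGTGGaaccgggacggg
FKBP11, first start, chr12:48925672-48925701, minus strand: gtttggcccgacCCACGTtataggacagaa
FKBP11, second start, chr12:48924951-48924980, minus strand: tttggcttggacACGTGGcaagcggttcgg
PPIB, chr15:64163190-64163219, minus strand: gagggagcaataACGTGGcaaccacccacg
FKBP7, chr2:178478601-178478850, minus strand: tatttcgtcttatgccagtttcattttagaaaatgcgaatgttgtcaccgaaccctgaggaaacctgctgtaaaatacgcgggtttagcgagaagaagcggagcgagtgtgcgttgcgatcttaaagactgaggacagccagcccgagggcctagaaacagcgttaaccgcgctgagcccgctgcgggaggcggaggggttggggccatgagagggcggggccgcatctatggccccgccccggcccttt
FKBP9, chr7:32957190-32957403, plus strand: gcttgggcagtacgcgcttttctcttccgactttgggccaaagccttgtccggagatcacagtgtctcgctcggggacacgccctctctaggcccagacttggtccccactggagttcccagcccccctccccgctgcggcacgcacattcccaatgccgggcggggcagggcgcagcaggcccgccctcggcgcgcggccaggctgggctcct

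The 7 genes differed widely in level. To compare genes, CPM were divided by the exon length in kilobases given in the count table (FPKM). In the siCtrl libraries PPIB was at 143 ± 9.48 FPKM (mean ± SD, n = 4), FKBP2 at 60.4 ± 5.75 and FKBP10 at 43.7 ± 1.94. FKBP14, at 10.8 ± 0.533 FPKM, FKBP11, at 8.00 ± 1.04, and FKBP9, at 4.12 ± 0.248, were expressed at lower levels, and FKBP7 was the lowest at 1.52 ± 0.122. The Vehicle libraries had the same order of means, although the ranges of FKBP14 (9.40 to 11.1 FPKM) and FKBP11 (9.16 to 9.80 FPKM) overlapped there. The FPKM of FKBP11 is low for its counts because the table gives the gene as 1 merged exon of 4957 bases. PPIB alone made up 52.6% ± 1.99 of the summed FPKM in siCtrl libraries and 53.5% ± 0.760 in Vehicle libraries.

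**Figure D1:**
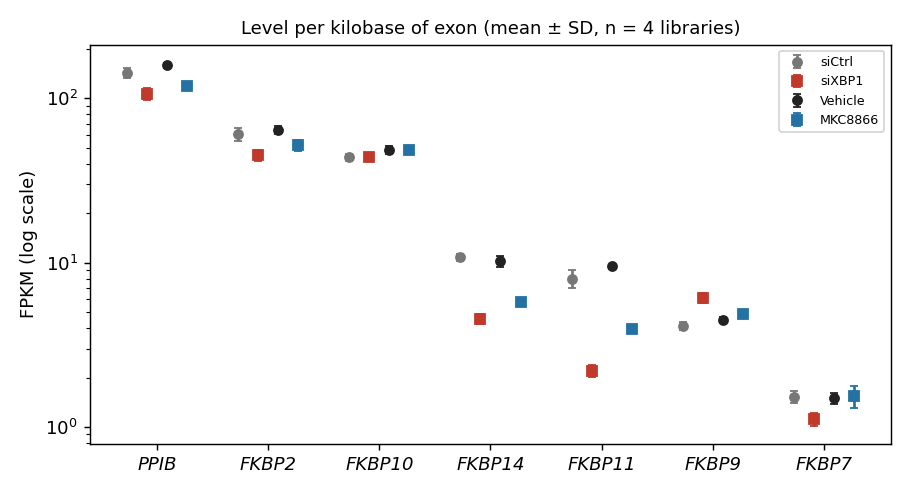
FPKM of each gene (log scale) in the 4 groups, as the mean ± SD of 4 libraries. PPIB is the most abundant in every group, and FKBP9 lies above both FKBP14 and FKBP11 in the siXBP1 libraries only. The height of FKBP11 depends on the length of the 1 merged exon given to it.

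The summed FPKM of the 7 genes was 271 ± 10.1 in siCtrl and 209 ± 8.99 in siXBP1 libraries, a decrease by 22.9%. In the inhibitor experiment it was 297 ± 8.10 with Vehicle and 235 ± 8.54 with MKC8866, a decrease by 21.2%. Most of the fall was in PPIB, whose mean dropped by 36.1 FPKM after knockdown and by 40.9 FPKM with MKC8866. The composition moved as well. FKBP10, whose own level did not change detectably, went from 16.2% ± 1.31 of the sum in siCtrl to 20.95% ± 1.47 in siXBP1 libraries, and from 16.4% ± 1.11 with Vehicle to 20.7% ± 1.40 with MKC8866. FKBP14 and FKBP11, which stood above FKBP9 in both controls, fell below it after knockdown, with FKBP9 at 5.75 to 6.63 FPKM, FKBP14 at 4.16 to 4.82 and FKBP11 at 2.00 to 2.42. With MKC8866, FKBP14 (5.58 to 6.03 FPKM) remained above FKBP9 (4.79 to 5.05), and FKBP11 (3.66 to 4.17) lay below it. These shares, sums and orders are descriptions and were not tested. Those that involve FKBP11 rest on the merged length of 4957 bases given to it. Its place relative to FKBP9 could differ with another length.

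After XBP1 knockdown, FKBP11, FKBP14, FKBP7, FKBP2 and PPIB were lower and FKBP9 was higher, which is 5 of 7 genes lower and 1 of 7 higher at an adjusted p under 0.05 in edgeR. Over all 21021 genes tested, 18.2% were lower and 16.5% higher. With MKC8866, FKBP11, FKBP14, PPIB and FKBP2 were lower, which is 4 of 7 genes, and none was higher, against 3.11% of 21045 genes lower and 1.36% higher. Of the 7 genes, 1 was higher with MKC8866 at an unadjusted p under 0.05, and DESeq2 also called none. When the replicate number was a block in edgeR, 2746 of the 21045 genes in place of 941 were called with MKC8866, both directions together. The share called over all genes was thus larger in that fit. The calls on the 7 genes stayed the same. The median log2 fold change of the 7 genes was −0.43 after knockdown and −0.31 with MKC8866, beside medians of 0.0050 and 0.0027 over all genes tested. All 7 passed the filter on low counts in both comparisons. The genes were chosen with earlier results of these data known, so the contrast with all genes is a description and not a test.

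**Figure D2:**
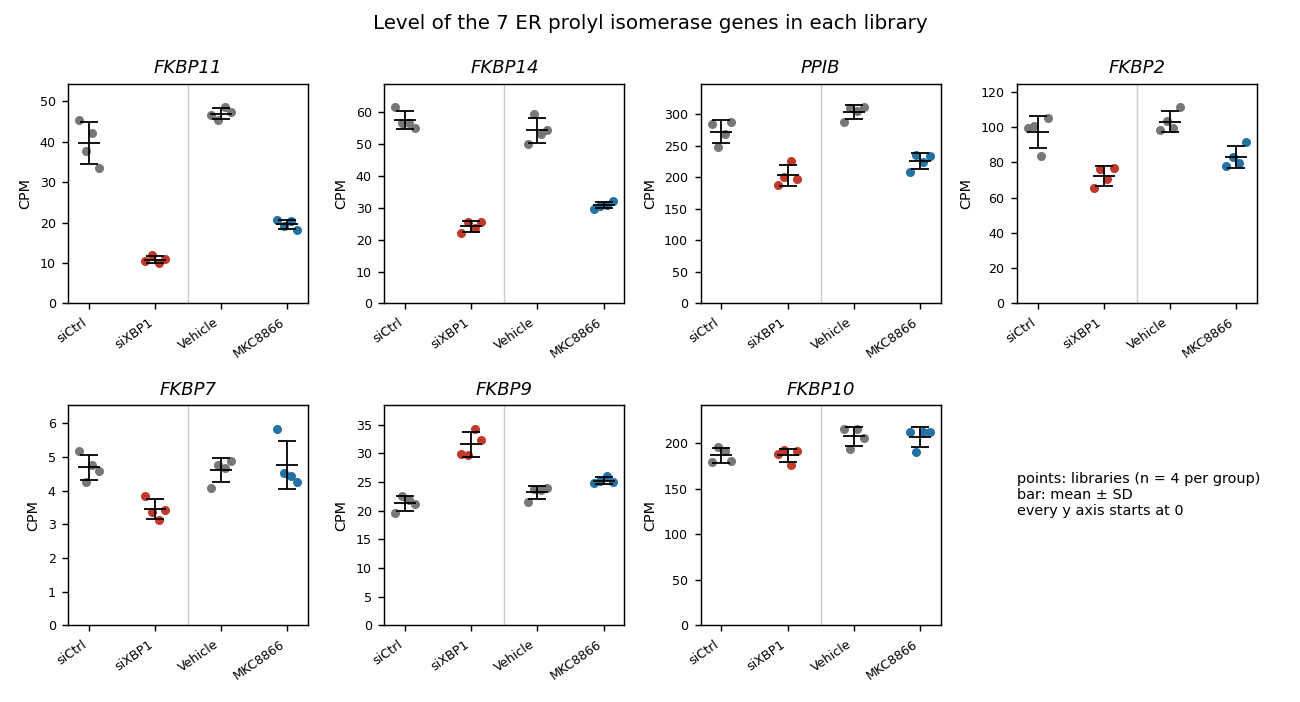
CPM of each gene in every library of the 4 groups (points), with the mean ± SD (bars, n = 4), on axes that start at 0. The treated and control libraries are separated in both experiments for FKBP11, FKBP14, PPIB, FKBP2 and FKBP9, and overlap in both for FKBP10. FKBP9 was nevertheless not called with MKC8866. The share of all genes with separated libraries was not determined.

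FKBP11 is anchored in the ER membrane and is known for its expression in secretory tissues. It was at 45.3, 37.7, 42.1 and 33.5 CPM in siCtrl libraries 1 to 4 and at 10.5, 12, 9.91 and 11.03 CPM in the siXBP1 libraries. Every siXBP1 library was thus far below the lowest control. FKBP11 decreased by 72.7% (log2 fold change −1.87, SE 0.086, adjusted p = 9.70e-14), and only 32 of 21021 tested genes had a lower one. In the inhibitor experiment its level was 46.6, 45.4, 48.6 and 47.4 CPM with Vehicle and 20.7, 19.2, 20.4 and 18.1 CPM with MKC8866. All MKC8866 libraries were below all Vehicle libraries, with a log2 fold change of −1.27 (SE 0.055, adjusted p = 5.09e-14), a decrease by 58.4%. No neighbouring pair in the order Vehicle, siCtrl, MKC8866 and siXBP1 had overlapping libraries. The spread was largest in siCtrl, with a coefficient of variation of 12.98% against 2.82% in Vehicle. Of the 4957 exon bases, 58 are shared with CCDC65 on the other strand, which was not called in either comparison, and 239 with ENSG00000255863, which had no count in any library.

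FKBP14 is a small luminal FKBP that acts on type III and other collagens, and its loss causes a form of Ehlers-Danlos syndrome. In siCtrl libraries 1 to 4 it was at 61.6, 56.6, 56.5 and 55.1 CPM, and in siXBP1 libraries at 22.2, 25.7, 23.6 and 25.6 CPM. The groups did not overlap, and the replicates of each lay close together. This is a decrease by 57.9% (log2 fold change −1.25, SE 0.057, adjusted p = 9.88e-14). Levels of 50.04, 59.3, 53.2 and 54.6 CPM with Vehicle compared with 29.7, 30.5, 31.0 and 32.1 CPM with MKC8866. Here too every treated library was below every control (log2 fold change −0.82, SE 0.054, adjusted p = 1.33e-10), a decrease by 43.3%. The siCtrl and Vehicle libraries overlapped, while the siXBP1 libraries were all below the MKC8866 libraries. The antisense gene FKBP14-AS1, which overlaps its span but none of its exons, had 1 to 14 counts per library.

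PPIB is the abundant cyclophilin of the ER lumen and forms, with P3H1 and CRTAP, the complex that 3-hydroxylates prolines of procollagen. It was at 285, 248, 269 and 288 CPM in siCtrl libraries 1 to 4, compared with 188, 200, 227 and 198 CPM in the siXBP1 libraries. The highest siXBP1 library, replicate 3, remained under the lowest siCtrl library. The log2 fold change of −0.43 (SE 0.055, adjusted p = 1.70e-06) is a decrease by 25.6%. The Vehicle libraries had 288, 311, 306 and 311 CPM and the MKC8866 libraries had 209, 236, 225 and 234 CPM. Again there was no overlap, and the log2 fold change was also −0.43 (SE 0.042, adjusted p = 1.17e-07), a decrease by 25.8%. The siCtrl libraries were all below the Vehicle libraries, whereas the MKC8866 and siXBP1 libraries overlapped. PPIB shares 519 of its 1911 exon bases (27.2%) with SNX22 on the other strand, and the counting took no account of strand and left out fragments that overlapped both genes. SNX22 was also lower in both comparisons, with log2 fold changes of −0.38 (SE 0.114, adjusted p = 0.0117) and −0.57 (SE 0.078, adjusted p = 1.98e-05), at 9.67 to 19.3 CPM over the 16 libraries. Its part in the values of PPIB was not tested.

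FKBP2 is a small soluble FKBP of the ER lumen. Its levels in siCtrl libraries 1 to 4 were 99.2, 100.4, 83.8 and 105 CPM and in siXBP1 libraries 65.2, 76.4, 70.6 and 76.8 CPM. Replicate 3 was the lowest of the siCtrl libraries but still above every siXBP1 library. FKBP2 decreased by 25.8% (log2 fold change −0.43, SE 0.061, adjusted p = 6.92e-06). With Vehicle it was at 98.2, 103, 99.4 and 111 CPM and with MKC8866 at 78.1, 83.1, 79.6 and 91.8 CPM. Replicate 4 was the highest library of both groups, which did not overlap. The decrease was 19.4% (log2 fold change −0.31, SE 0.051, adjusted p = 2.14e-04). The siCtrl libraries overlapped both the Vehicle and the MKC8866 libraries, and the siXBP1 libraries were below all others.

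FKBP7, a luminal FKBP with calcium-binding motifs that interacts with the chaperone BiP, was the weakest of the 7 genes, with 92 to 176 counts per library. The siCtrl libraries had 5.17, 4.27, 4.76 and 4.58 CPM and the siXBP1 libraries 3.86, 3.37, 3.13 and 3.42 CPM. Knockdown and control did not overlap. The log2 fold change was −0.45 with an SE of 0.113, the largest SE of the 7 genes in that comparison (adjusted p = 0.00306). In the inhibitor experiment the levels were 4.09, 4.78, 4.68 and 4.87 CPM with Vehicle and 5.83, 4.52, 4.44 and 4.25 CPM with MKC8866. Here the groups overlapped, and MKC8866 replicate 1 stood above the other three. The log2 fold change of 0.04 had a 95% interval from −0.19 to 0.28 (adjusted p = 0.920), which leaves out a fall of the size seen after knockdown. The MKC8866, siCtrl and Vehicle libraries overlapped each other in order, and the siXBP1 libraries were below them all.

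FKBP9, a luminal protein with several FKBP domains in tandem, moved the other way. It was at 19.6, 22.5, 21.9 and 21.2 CPM in siCtrl libraries 1 to 4 and at 29.9, 29.7, 34.3 and 32.4 CPM in siXBP1 libraries. Every siXBP1 library was above every other library of the study. FKBP9 increased by 47.8% after knockdown (log2 fold change 0.56, SE 0.062, adjusted p = 1.71e-07). The Vehicle libraries were at 21.5, 23.7, 23.6 and 24.0 CPM and the MKC8866 libraries at 24.8, 25.2, 26.1 and 25.1 CPM. These groups did not overlap either, but the difference of 0.12 on the log2 scale (SE 0.056, 95% interval 0.0052 to 0.24) did not pass the test after adjustment (unadjusted p = 0.0413, adjusted p = 0.304 in edgeR). The near copy FKBP9P1 had 14 to 39 counts per library and was not called in either comparison. Fragments that match both would not have been counted, since multimapping fragments were left out.

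FKBP10, a luminal FKBP with several FKBP domains and a chaperone of type I procollagen whose loss causes brittle bones, was the third most abundant of the 7 genes per length. The siCtrl libraries had 179, 196, 192 and 180 CPM and the siXBP1 libraries 188, 192, 176 and 191 CPM. The ranges largely coincided, with a log2 fold change of −0.0035 (SE 0.042, 95% interval −0.090 to 0.083, adjusted p = 0.965). With Vehicle it was at 216, 194, 216 and 206 CPM and with MKC8866 at 212, 191, 212 and 213 CPM. Replicate 2 was the lowest library of both groups. Their difference was −0.0071 on the log2 scale (SE 0.045, 95% interval −0.099 to 0.085, adjusted p = 0.971). Both intervals leave out falls as large as those measured for PPIB and FKBP2.

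**Figure D3:**
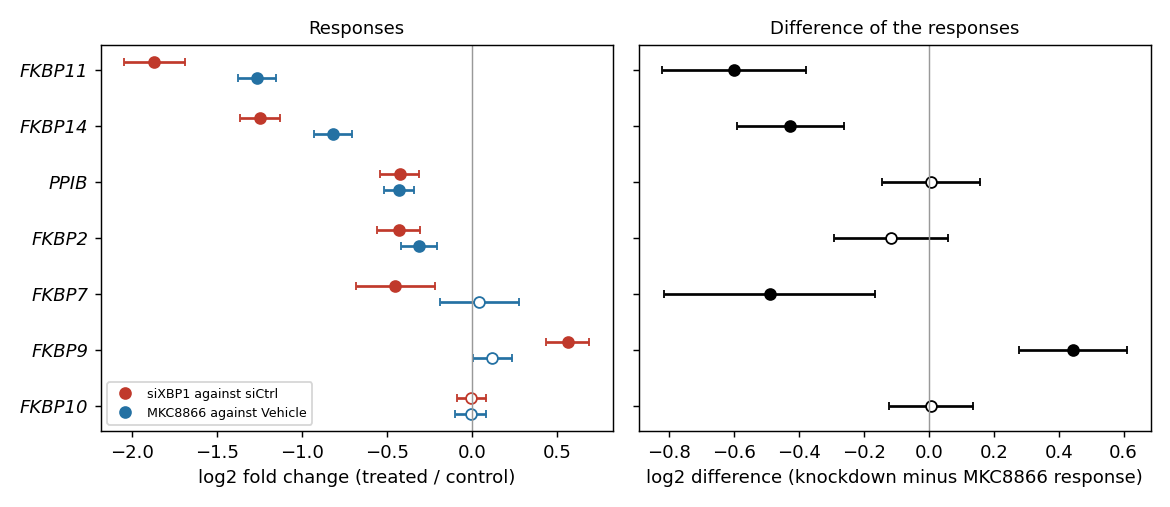
Log2 fold change of each gene after XBP1 knockdown and with MKC8866 (left) and the difference of the 2 responses (right), with 95% intervals as bars. Filled points are called at an adjusted p under 0.05. FKBP11 and FKBP14 fell in both comparisons and more after knockdown, PPIB has nearly the same value in both, and FKBP9 and FKBP7 are called after knockdown only.

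Whether the responses to knockdown and to MKC8866 differed was tested as an interaction in edgeR over all 16 libraries and 20357 genes. The difference was called for 4 of the 7 genes, against 23.3% of all genes tested. FKBP11 and FKBP14 fell further after knockdown, with log2 differences of −0.60 (SE 0.108, adjusted p = 9.43e-05) and −0.43 (SE 0.080, adjusted p = 1.62e-04). FKBP9 had a more positive response to knockdown, by 0.44 (SE 0.081, adjusted p = 1.17e-04). For FKBP7 the difference was −0.49 (SE 0.159, adjusted p = 0.0234). It was no longer called without siCtrl replicate 1 (adjusted p = 0.0534), without Vehicle replicate 1 (adjusted p = 0.0532) or without MKC8866 replicate 1, the high library (adjusted p = 0.0748). PPIB (0.0066, 95% interval −0.14 to 0.16), FKBP10 (0.0062, −0.12 to 0.13) and FKBP2 (−0.12, −0.29 to 0.06) were not called. For PPIB the interval leaves out a difference as large as that of FKBP11 or FKBP14. The experiments had separate controls and lengths of pretreatment, and the kind of inhibition and the experiment cannot be told apart.

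The remaining FKBP and cyclophilin genes, nearly all of proteins outside the ER, were counted in the same way. Of the 11 other FKBP genes, 9 were tested after knockdown, and 1 was lower and 1 higher. These are shares of 11.1% each, beside 18.2% and 16.5% of all genes tested. FKBP5, a cochaperone of steroid receptors and a known androgen-induced gene, was lower (log2 fold change −0.76, SE 0.054, adjusted p = 1.57e-10). The list median was −0.054. With MKC8866, none of the 8 tested was called by edgeR or DESeq2, 1 was lower and 1 higher at an unadjusted p under 0.05, and the median was −0.016. With the replicate number as a block in edgeR, 1 was called lower and 1 higher. FKBP5 was one of these, at 228 to 252 CPM with Vehicle and 257 to 272 CPM with MKC8866. In the main fit, without the block, it was not called (log2 fold change 0.12, SE 0.039, edgeR adjusted p = 0.0826). The responses of FKBP5 to the treatments differed by −0.88 (SE 0.071, adjusted p = 6.09e-11). The summed level of the 9 luminal markers, several of them androgen-induced, was 3851 to 4082 CPM in siCtrl and 3306 to 3404 CPM in siXBP1 libraries, and 3832 to 4020 CPM with Vehicle and 4183 to 4373 CPM with MKC8866. Its part in the values of FKBP5 was not tested.

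All 16 other cyclophilin genes were tested. After knockdown 5 were lower and 3 higher, shares of 31.3% and 18.8% beside 18.2% and 16.5% of all genes tested. The list median was −0.056. PPWD1, a nuclear cyclophilin of the spliceosome, had a log2 fold change of −0.38 (SE 0.064, adjusted p = 5.58e-05), and PPID, a cochaperone of Hsp90, of −0.32 (SE 0.064, adjusted p = 3.80e-04). PPIA, the main cytosolic cyclophilin, was higher by 0.15 (SE 0.049, adjusted p = 0.0210), as was PPIL6 by 0.72 (SE 0.148, adjusted p = 5.23e-04). With MKC8866 none was called by edgeR or DESeq2, 1 was lower at an unadjusted p under 0.05, and the median was −0.025. The replicate block gave 2 called lower. PPIC, the other cyclophilin of the secretory pathway, was not called after knockdown (0.22, SE 0.153, adjusted p = 0.298) or with MKC8866 (0.03, SE 0.133, adjusted p = 0.962).

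Among the 15 genes of procollagen folding and modification, 13 were tested, and after knockdown 6 were lower and 2 higher (46.2% and 15.4%, median −0.049). Over all genes tested, 18.2% were lower and 16.5% higher after knockdown, and 3.11% and 1.36% with MKC8866. P4HB, protein disulfide isomerase and the β subunit of prolyl 4-hydroxylase, was at 889 to 906 CPM in siCtrl and at 589 to 624 CPM in siXBP1 libraries (log2 fold change −0.57, SE 0.036, adjusted p = 2.11e-11). The lysyl hydroxylase gene PLOD3 was lower (log2 fold change −0.37, SE 0.058, adjusted p = 2.11e-05), and the weakly expressed genes COLGALT2, a collagen galactosyltransferase, and P3H2, a prolyl 3-hydroxylase, were higher by 0.81 (SE 0.126, adjusted p = 2.06e-05) and 0.47 (SE 0.112, adjusted p = 0.00199). With MKC8866, 1 of the 13 was lower, P4HB (−0.25, SE 0.037, adjusted p = 6.13e-05), and 1 was higher, P3H4 (0.45, SE 0.044, adjusted p = 9.63e-08), with a median of 0.040, and the replicate block gave 1 lower and 2 higher. The partners of PPIB were not called in either comparison. P3H1 had log2 fold changes of −0.049 (adjusted p = 0.564) and −0.051 (adjusted p = 0.764), and CRTAP of 0.099 (adjusted p = 0.0839) and 0.012 (adjusted p = 0.949). SERPINH1, the procollagen chaperone HSP47, was not tested, with 0 to 4 counts per library, and PLOD2 was barely detected at a mean of 0.0509 FPKM and not called (adjusted p = 0.966 and 0.604). Of the 11 collagen genes, 8 were tested. After knockdown 3 were higher, 37.5% beside 16.5% of all genes tested, and none was lower. The list median was 0.14, and none was lower by DESeq2 or at an unadjusted p under 0.05. Among those higher were COL5A2 (1.29, SE 0.069, adjusted p = 1.21e-12) and COL3A1 (1.10, SE 0.138, adjusted p = 1.32e-06). With MKC8866 none was called by edgeR or DESeq2, 1 was lower at an unadjusted p under 0.05, and the median was 0.0060. Under the replicate block 1 was called lower. The summed level of the 6 fibroblast markers, which include COL1A1 and COL3A1, was 28.0 to 36.1 CPM in siCtrl and 36.7 to 39.8 CPM in siXBP1 libraries, and 30.3 to 40.0 CPM with Vehicle and 29.0 to 34.1 CPM with MKC8866. Besides COL3A1, the marker PDGFRB, with 9 to 25 counts, was called higher after knockdown (log2 fold change 0.88, adjusted p = 0.0164). COL1A1 (0.16, adjusted p = 0.0762) and LUM (−0.19, adjusted p = 0.758) were not called. DCN and COL1A2 were at or near 0 in all libraries. COL1A1, COL1A2 and COL3A1 are on both lists, so the summed marker level is not separate from the collagen values. The part of the other markers was not tested.

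**Figure D4:**
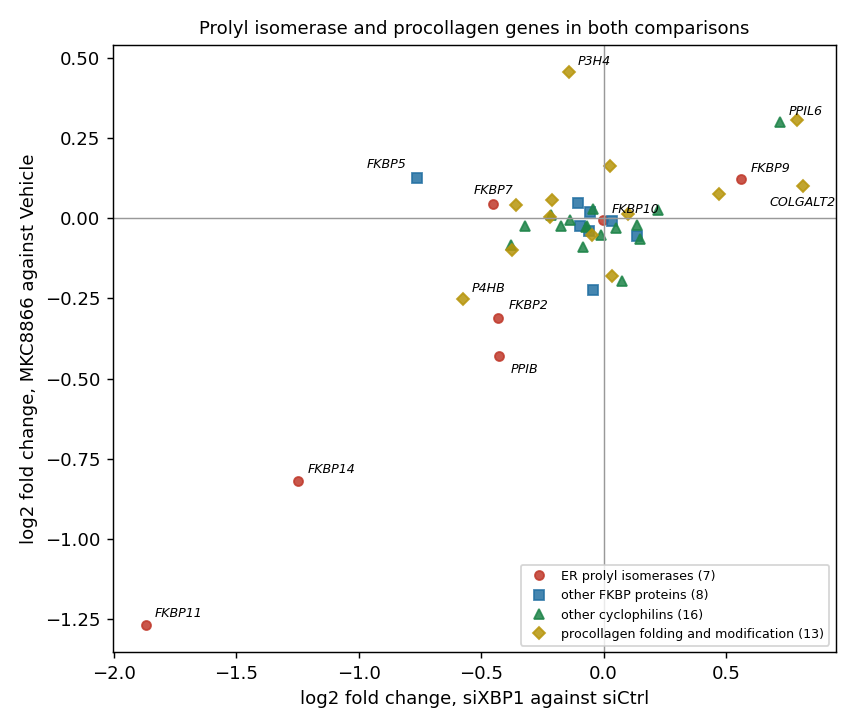
Log2 fold change after XBP1 knockdown (x axis) and with MKC8866 (y axis) for the genes tested in both, with 7 ER prolyl isomerases, 8 other FKBP genes, 16 other cyclophilin genes and 13 genes of procollagen folding and modification. FKBP11 and FKBP14 lie alone at the lower left, and FKBP10 lies at the origin.

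For the 6 genes called in at least 1 comparison, the 3 genes with the most similar profile over the 16 libraries were found by Pearson correlation of log2 CPM among 15037 genes. The libraries of a group share their treatment, so these values mainly describe the 4 group levels. FKBP14 was closest to TMEM39A (r = 0.993), PRRC1 (r = 0.990) and SSR2 (r = 0.990), the last a subunit of the translocon-associated protein complex. TMEM39A had log2 fold changes of −1.75 after knockdown and −1.14 with MKC8866, both larger than those of FKBP14. FKBP11 was closest to PGM3 (r = 0.987), an enzyme of UDP-N-acetylglucosamine synthesis, ARFIP2 (r = 0.986) and TRIM27 (r = 0.985). The nearest genes to PPIB were ARMCX3 (r = 0.966), SEC11C (r = 0.963), a catalytic subunit of the signal peptidase, and DNAJC25 (r = 0.961). FKBP2 was nearest to ZNF440 (r = 0.969), GPANK1 (r = 0.945) and SPCS2 (r = 0.945), another signal peptidase subunit. FKBP9 was most similar to GSTCD (r = 0.976), SIAH1 (r = 0.964) and NIBAN1 (r = 0.963), all of them higher after knockdown. With MKC8866, SIAH1 was also called higher (log2 fold change 0.18, edgeR adjusted p = 0.0487), and GSTCD and NIBAN1 were not called. FKBP7 had lower correlations, with TIGD1 (r = 0.892), PVT1 (r = 0.889) and RAB3A (r = 0.886), which were lower after knockdown and not called with MKC8866.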

How the data were processed

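RNA-seq libraries from LNCaP cells were grouped by the sample labels. The authors aligned paired-end reads to GRCh38 with STAR (2.5.2a) and counted fragments per gene with featureCounts (1.5.0) on an Ensembl annotation. The deposited values are raw counts. Strand was ignored in the counting, and a fragment was left out where it mapped to several places or lay over more than 1 gene. Gene lengths are from the same table. Symbols were matched for 56948 of 58051 genes. Depth was 28713607 to 34509488 fragments per library (median 30743136), so that counting error matters mainly for FKBP7.

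For each treatment and its control, the counts were fitted with edgeR 4.0.16 in R 4.3.3, using TMM scaling and the two-sided quasi-likelihood F test. A gene was tested where both groups had a library with over 5 counts. Interactions were fitted over all 16 libraries. Adjusted p-values are Benjamini-Hochberg values over all genes tested, and SEs are from the log2 fold change and F statistic. FPKM are TMM-scaled CPM per kilobase of the table's gene length. The steps were tested on simulated data. Among 100 genes changed by 0.3 and 100 changed by 0.7 on the log2 scale, 61% and 91% were recovered in the knockdown design (20386 genes, 5 false calls) and 66% and 90% in the inhibitor design (20465 genes, 9 false calls).

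The 7 genes, the gene lists (from textbook knowledge), the tests and the naming rule were chosen with earlier results of these data known. Named were the 7 genes, XBP1 and ERN1, and from each list and comparison up to 2 called genes per direction with the largest change and a mean of at least 1 CPM. Also named were PPIC, P3H1, CRTAP, SERPINH1 and PLOD2, the 3 most similar genes per member, overlapping genes and FKBP9P1. Alternatives were DESeq2 1.42.0, DESeq2-style size factors, no filter, a minimum of 10 counts per library, the replicate block, 1 fit of all libraries, an adjusted p under 0.01 and leaving out each library. Splicing of XBP1 was not analysed here. A few listed genes that met the naming rule are not reported here. Python 3.11.15, pandas 2.3.3 and matplotlib 3.10.9 were used for tables and figures.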

Additional observations from a re-analysis of the deposited data

Results flagged for a closer look

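The level of 3 genes had a lone library in 1 group of 4, judged by the gap to the nearest library as a share of the group's range (Dixon's rule). They were FKBP7 in MKC8866, where the highest library was replicate 1 (ratio 0.8291, just past the limit), FKBP9 in Vehicle, where the lowest was replicate 1 (0.844), and FKBP10 in MKC8866, where the lowest was replicate 2 (0.986). Of 28 groups examined, 3 were past the limit, and chance alone gives about 1 in 20. The responses to knockdown and to MKC8866 differed in the interaction test for FKBP11 (−0.60 on the log2 scale), FKBP7 (−0.49), FKBP9 (0.44) and FKBP14 (−0.43). Without the lone MKC8866 library the difference for FKBP7 was −0.38 and was no longer called (edgeR adjusted p = 0.0748).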

How the results depend on the processing

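The counts of the 7 genes called, 5 lower and 1 higher after knockdown and 4 lower with MKC8866, were the same under every alternative run. Of 343 member values under an alternative, 315 kept their direction and call. The 25 that changed sign were all near 0 and never called. For FKBP10 after knockdown they included 0.0019 with DESeq2, 0.0019 with DESeq2-style size factors, 0.0038 without a filter and 0.0078 with at least 10 counts in every library. With 1 library left out, FKBP10 after knockdown ranged from −0.014 to 0.028, and only some of these fits changed sign. When leaving out 1 library, FKBP10 ranged from −0.042 to 0.023 with MKC8866 and from −0.031 to 0.038 for the interaction, FKBP7 from −0.075 to 0.095 with MKC8866, and PPIB from −0.050 to 0.042 for the interaction. The interaction of FKBP7 ranged from −0.55 to −0.38 (edgeR adjusted p 0.0148 to 0.0748) and was lost in 3 of 16 such fits, and 3 members were called at an adjusted p under 0.01. The labels do not say that the replicate numbers mark a shared culture or day. Same-number correlations were 0.0076 to 0.064 in the knockdown experiment, and 0.187, 0.329, 0.084 and 0.193 for replicates 1 to 4 of the inhibitor experiment, where Vehicle replicate 3 correlated better with MKC8866 replicate 1 (0.128). The numbers were not taken as pairs in the main fit, although the same-number correlations of the inhibitor experiment were all positive (mean 0.198). The SEs and intervals given for MKC8866 are thus from a fit without pairs. With the replicate block the SE was 0.029 in place of 0.051 for FKBP2, 0.024 in place of 0.042 for PPIB and 0.107 in place of 0.113 for FKBP7. FKBP9 had an edgeR adjusted p of 0.0901 with the block, in place of 0.304. With the replicate block, 2746 genes in place of 941 were called with MKC8866, the cause was not tested, and no call on the 7 genes changed. Leaving out 1 library gave 711 to 1317. Depth limits FKBP7 most.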

Other observations

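FKBP10 lies head to head with P3H4, which encodes a relative of the prolyl 3-hydroxylases that takes part in collagen lysine hydroxylation. P3H4 spans chr17:41801947-41812604 on the minus strand, and its start lies 76 bases from that of FKBP10 in the coordinates of the count table (GRCh38). The pair was singled out after its values were seen. P3H4 was at 45.2, 46.5, 43.8 and 43.2 CPM in siCtrl and at 41.2, 37.8, 40.7 and 42.9 CPM in siXBP1 libraries, and at 50.5, 52.4, 52.6 and 49.8 CPM with Vehicle and 71.0, 69.9, 70.7 and 70.0 CPM with MKC8866. All MKC8866 libraries were thus above all others. The log2 fold change was −0.14 after knockdown (SE 0.050, adjusted p = 0.0331) and 0.45 with MKC8866 (SE 0.044, adjusted p = 9.63e-08), and the responses differed by −0.59 (SE 0.063, adjusted p = 1.68e-08, edgeR interaction). FKBP10, whose start is next to it, had values of −0.0035 and −0.0071.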
